A study of Mus musculus with 2 samples.

Results

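The genes described are 4 transglutaminases (Tgm1, Tgm2, Tgm3 and Tgm5) and the envelope plakins envoplakin (Evpl) and periplakin (Ppl). They were chosen by symbol, all 6 were found among the 27998 genes of the files, and each matched 1 row. The libraries came from the epidermis of 2 male C57BL/6J mice at postnatal day 0 without a working Chrm3 gene, which encodes the muscarinic receptor M3, in any cell, with 1 library of single cells per mouse (KO mouse 1 and KO mouse 2). Dead cells had been removed before loading on the 10x Chromium device. No wild-type library was analysed here, so each value describes KO tissue alone, and the only replicates are the mice. Chrm3 itself had 13 UMIs in KO mouse 1 (0.137 CPM, with an exact 95% interval by Poisson counting of 0.0728 to 0.234) and 19 in KO mouse 2 (0.128 CPM, 0.0769 to 0.199), and a UMI count does not tell which part of a gene a transcript came from.

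Transglutaminases join proteins by bonds between glutamine and lysine side chains. In the upper layers of the interfollicular epidermis (IFE) they link envoplakin, periplakin, involucrin, loricrin and small proline-rich proteins into the cornified envelope, the insoluble shell of the dead cells of the skin surface. Envoplakin and periplakin form dimers at desmosomes and on the membrane and are known as an early scaffold of that shell, and loss of TGM1 function is known to cause lamellar ichthyosis in humans.

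The members lie on 4 chromosomes of GRCm38 (mm10). Tgm1 (ENSMUSG00000022218) lies on the minus strand at chr14:55700009-55713926. Chromosome 2 holds Tgm5 (ENSMUSG00000053675, minus strand) at chr2:121046111-121085841, Tgm3 (ENSMUSG00000027401, plus strand) at chr2:130012349-130050399 and Tgm2 (ENSMUSG00000037820, minus strand) at chr2:158116402-158146436. Evpl (ENSMUSG00000034282) is on the minus strand at chr11:116220559-116238077, and Ppl (ENSMUSG00000039457) on the minus strand at chr16:5086291-5132421. All 6 are annotated as protein-coding genes in GENCODE M21.

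Promoter sequence from RefSeq (GRCm38.p6) was found for 3 of the 6 members, and Tgm2, Evpl and Ppl had no entry. Windows are shown for these 3 because only they had an entry, and no link between their letters and the levels was tested. Each is the stretch of up to 250 bases that ends next to a RefSeq start, written from 5′ to 3′ on the strand of the gene, at chr14:55713495-55713742 for Tgm1 (minus strand), chr2:130012090-130012339 for Tgm3 (plus strand) and chr2:121085842-121086091 for Tgm5 (minus strand). The RefSeq start can differ from that of the GENCODE gene given above, and the Tgm1 window lies within the GENCODE span of Tgm1. A second RefSeq window of Tgm1, which overlaps an exon, is not shown. Capitals mark letters that match a motif.
Tgm1: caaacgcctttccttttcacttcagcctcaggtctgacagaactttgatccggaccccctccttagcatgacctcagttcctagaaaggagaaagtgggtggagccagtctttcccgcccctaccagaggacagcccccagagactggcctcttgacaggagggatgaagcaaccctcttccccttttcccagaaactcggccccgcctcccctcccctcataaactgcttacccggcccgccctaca
Tgm3: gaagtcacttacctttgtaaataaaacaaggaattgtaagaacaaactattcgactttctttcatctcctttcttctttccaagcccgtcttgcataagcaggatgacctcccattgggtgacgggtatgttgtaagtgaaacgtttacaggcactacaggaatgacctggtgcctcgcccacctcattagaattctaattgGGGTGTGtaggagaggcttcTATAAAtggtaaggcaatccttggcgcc
Tgm5: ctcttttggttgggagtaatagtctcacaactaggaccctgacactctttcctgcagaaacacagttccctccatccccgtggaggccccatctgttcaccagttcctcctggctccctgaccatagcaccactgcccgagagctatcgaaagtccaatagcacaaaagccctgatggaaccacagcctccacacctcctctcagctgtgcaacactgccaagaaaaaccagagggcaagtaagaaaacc
Both strands were searched for 4 motifs. The TATA-box letters TATAAA were found in 12.4% of the 32851 RefSeq promoter windows of the same length, those of AP-1 factors (TGANTCA) in 6.75%, those of KLF factors (GGGNGTG) in 26.1% and those of grainyhead-like factors (AACNNGTT) in 3.64%. In Tgm3, TATAAA lay at -28 to -23 from the start and GGGTGTG at -48 to -42. The windows of Tgm1 and Tgm5 held none of these letters, which is a description of the letters alone.

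In the files, each transcript carries a cell barcode and a unique molecular identifier (UMI), so that a level is a number of UMIs, given here as CPM (UMIs of the gene scaled to a fixed total of UMIs in the same cells). KO mouse 1 had 10816 barcodes and KO mouse 2 had 15867, of which 7607 and 11881 had 900 to 7700 genes and under 10% mitochondrial UMIs and were kept. Their median depth was 10480 and 10577 UMIs. The mice shared 127 barcode sequences, 34 of them among the kept cells. Cells were clustered without the 6 members and without the genes of the lists used below, and clusters were named from markers. This gave 5 stages of the IFE, namely resting basal (1978 cells in KO mouse 1 and 3540 in KO mouse 2), dividing basal (260 and 511), transition (223 and 368), differentiated (334 and 420) and terminally differentiated keratinocytes (KCs; 45 and 49). Among hair follicle cells there were resting progenitors (1531 and 2275), dividing progenitors (892 and 1212), cells of the inner root sheath and hair shaft (360 and 586) and upper follicle cells (294 and 263). The stages were named in part from keratins, so the keratin levels describe them and do not check them. Suprabasal clusters were called transition below and differentiated from a 50% share of Krt1 and Krt10 among these and Krt5 and Krt14. Krt14, a basal keratin, stood at 13454 and 13836 CPM in resting basal, 16012 and 19641 in transition and 3154 and 4067 in differentiated KCs, and Krt10, a suprabasal keratin, at 624.7 and 955.2, 6037 and 4213, and 24921 and 22659 CPM. Classes were drawn from the same cells as the levels. A p-value between classes sets a difference against counting error and a spread between the mice that was estimated over all 14 classes together. It does not tell whether the mice agree on that difference, so values are given for each mouse.

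Tgm1, the membrane-bound transglutaminase of KCs, and Tgm3, a cytosolic one, were low up to transition KCs and higher in differentiated KCs. Tgm1 had 13 and 45 UMIs in resting basal KCs of KO mouse 1 and KO mouse 2 (0.652 and 1.24 CPM), 2 and 5 in transition KCs (0.640 and 1.04 CPM) and 214 and 193 in differentiated KCs (29.5 and 21.6 CPM). Tgm3 had 27 and 54 UMIs in resting basal (1.36 and 1.49 CPM), 1 and 6 in transition (0.320 and 1.24 CPM) and 355 and 468 in differentiated KCs (48.9 and 52.3 CPM). In both mice the differentiated level of either gene was far above its resting basal and transition levels. The Poisson intervals of the differentiated and transition levels did not overlap. Terminally differentiated KCs, where Tgm1 had its highest mean level, are described below. Melanocytes, which are not known to make either enzyme in quantity, had 0.648 and 1.83 CPM of Tgm1 and 0.432 and 0.609 CPM of Tgm3. They stand here for the background of free RNA. For both genes the intervals of resting basal and transition KCs overlapped those of melanocytes in either mouse. The melanocyte values rest on 3 and 15 UMIs of Tgm1 and 2 and 5 of Tgm3, so this overlap cannot show that the levels were alike. In both mice the Tgm3 level of resting basal KCs lay above that of melanocytes, and this difference was not tested. Differentiated KCs were 4.39% and 3.54% of the cells, with 7.64% and 6.01% of the UMIs of all genes. They held 65.8% and 44.99% of all Tgm1 UMIs and 82.9% and 72.7% of all Tgm3 UMIs. The RNA was also uneven from cell to cell, with up to 21 (KO mouse 1) and 27 (KO mouse 2) Tgm1 UMIs in a cell of this stage.

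Periplakin and envoplakin were present from the basal layer on. Ppl stood at 198.7 and 160.2 CPM in resting basal KCs (3961 and 5794 UMIs), 290.1 and 247.6 CPM in transition, 280.5 and 247.9 CPM in differentiated and 220.4 and 256.0 CPM in terminally differentiated KCs. Evpl stood at 21.9 and 21.65 CPM in resting basal (437 and 783 UMIs), 49.25 and 49.55 CPM in transition, 108.5 and 118.4 CPM in differentiated and 65.8 and 59.2 CPM in terminally differentiated KCs. In both mice the Ppl levels of transition and differentiated KCs were alike, whereas Evpl was higher in each of the first 3 stages than in the one before. Resting basal KCs alone held 37.7% and 40.5% of all Ppl UMIs, with 26.0% and 29.8% of the cells.

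Tgm5, a further transglutaminase of the epidermis, whose loss is known to cause acral peeling skin, had a flatter profile over these stages than Tgm1 and Tgm3. Its level was 7.38 CPM in the resting basal KCs of either mouse (147 and 267 UMIs), 11.1 and 9.16 CPM in dividing basal, 9.59 and 4.98 CPM in transition, 17.6 and 14.2 CPM in differentiated, and 9.87 and 21.01 CPM in terminally differentiated KCs (3 and 11 UMIs). The differentiated KCs of both mice lay above their transition KCs, and the terminally differentiated values had intervals too wide to be placed (2.04 to 28.8 and 10.5 to 37.6 CPM). Tgm2, the widely expressed tissue transglutaminase, had 31 and 59 UMIs in all kept cells. In resting basal KCs it had 0 and 2 UMIs, in transition and terminally differentiated KCs none, and in differentiated KCs 0 and 1. The limit that a count of 0 allows, taken as 3 UMIs, was 0.151 CPM for resting basal KCs of KO mouse 1. The plot of levels by IFE stage shows these profiles.

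**Figure D1:**
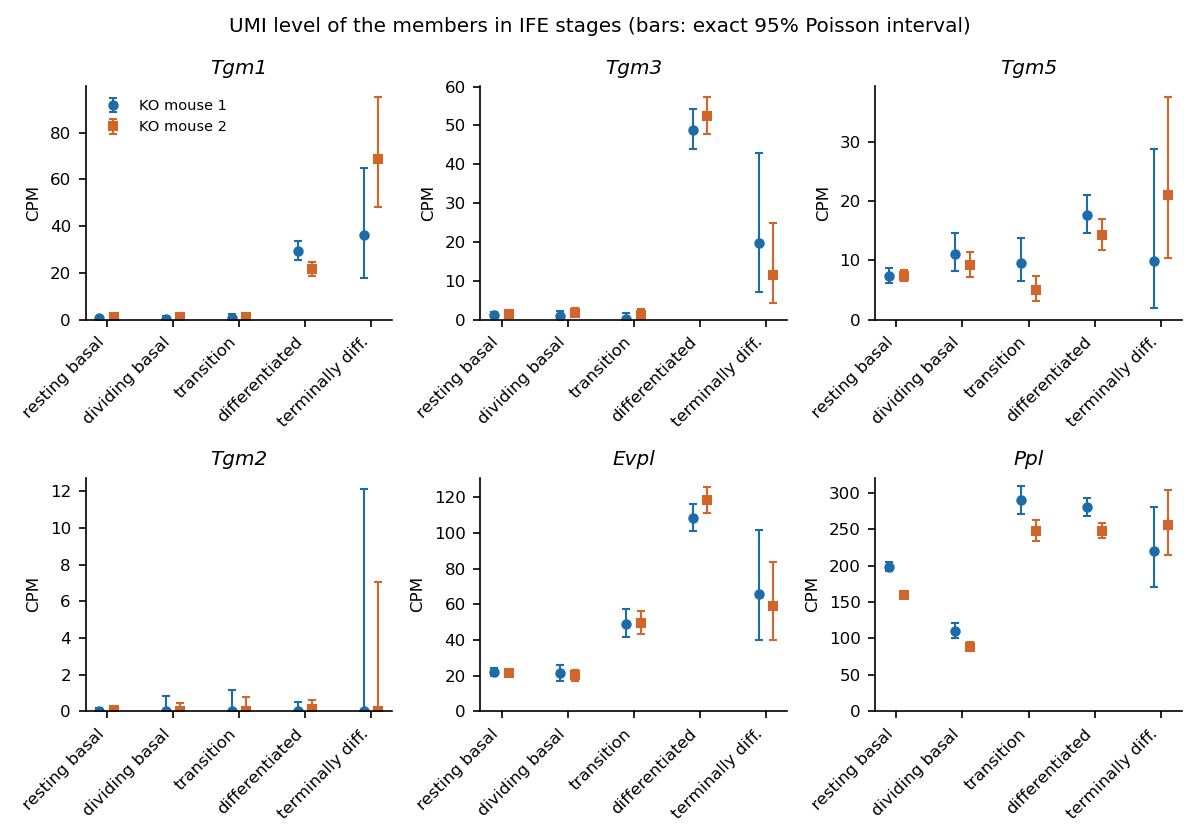
Level of each member (y axis, CPM) in the 5 IFE stages (x axis) in KO mouse 1 (circles) and KO mouse 2 (squares), with exact 95% Poisson intervals, which cover counting error only. Tgm1 and Tgm3 lie near 0 up to the transition stage and at 21.6 to 52.3 CPM in differentiated KCs, whereas Ppl is at 160.2 CPM or more in resting basal KCs.

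Each step of the IFE was tested with edgeR's quasi-likelihood test on UMIs summed per mouse and class, with Benjamini-Hochberg adjustment over the 13795 genes tested. Of the 6 members, 5 passed the filter on low counts, and Tgm2 did not. From resting basal to transition KCs, 2 of the 5 members were called (adjusted p under 0.05), both higher, where 23.4% of all genes were called in either direction, 9.84% higher and 13.6% lower. Evpl rose by 1.315 on the log2 scale (SE 0.15, adjusted p = 5.6e-07, edgeR) and Ppl by 0.71 (SE 0.14, adjusted p = 0.00059, edgeR). The log2 differences of the transglutaminases were -0.07 (Tgm1, SE 0.76), -0.57 (Tgm3, SE 0.63) and 0.03 (Tgm5, SE 0.27), with adjusted p from 0.60 to 0.99 (edgeR). The standard errors of Tgm1 and Tgm3 rest on 2 and 5 and on 1 and 6 UMIs in transition KCs, so differences of several-fold were not detectable at this depth. Within KO mouse 1 the ratio of Tgm1 in transition to resting basal KCs was 0.981, with an exact counting interval of 0.107 to 4.33.

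From transition to differentiated KCs, 4 of the 5 members were called, all higher, where 20.3% of all genes were called, 12.3% higher and 7.98% lower. Tgm3 rose by 5.88 on the log2 scale (SE 0.40, adjusted p = 2.4e-10, edgeR) and Tgm1 by 4.88 (SE 0.50, adjusted p = 7.3e-08, edgeR), both above their levels in the transition cells of each mouse. Because the transition stage of KO mouse 1 held 1 UMI of Tgm3 and 2 of Tgm1, its ratios of 152.8 (Tgm3) and 46.1 (Tgm1) had counting intervals of 27.25 to 6052 and 12.6 to 382.8. Evpl rose again, by 1.25 (SE 0.15, adjusted p = 6.5e-07, edgeR), and Tgm5 by 1.25 (SE 0.27, adjusted p = 0.0011, edgeR). Ppl, the periplakin gene, had a log2 difference of 0.03 (SE 0.15, adjusted p = 0.95, edgeR). Of the plakins, Evpl was thus called at both steps and Ppl at the first, and the difference between the genes was not tested.

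From differentiated to terminally differentiated KCs, 2 of the 5 members were called, both lower, where 22.4% of all genes were called, 11.1% higher and 11.3% lower. Tgm3 had 6 UMIs in the terminally differentiated KCs of either mouse, which is 19.7 and 11.5 CPM, and fell by 2.09 on the log2 scale (SE 0.43, adjusted p = 0.00084, edgeR). Evpl had 20 and 31 UMIs and fell by 1.17 (SE 0.23, adjusted p = 0.00043, edgeR). Outside this class, the cells richest in loricrin had higher Evpl levels than differentiated KCs, as given below. Tgm1 had 11 and 36 UMIs, which is 36.2 and 68.8 CPM (intervals 18.1 to 64.8 and 48.2 to 95.2), and its log2 difference of 0.84 (SE 0.38, adjusted p = 0.12, edgeR) was not called. In both mice its CPM was above that of differentiated KCs (29.5 and 21.6 CPM). The log2 difference as scaled by edgeR was 1.45 without KO mouse 1 and -0.12 without KO mouse 2. For KO mouse 1 the CPM and the scaled value thus differed in direction. The log2 differences of Ppl and Tgm5 were -0.43 (SE 0.18) and -0.20 (SE 0.45), with adjusted p of 0.097 and 0.83 (edgeR). That of Tgm5 turned with the mouse, with 0.345 without KO mouse 1 and -1.25 without KO mouse 2.

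These terminally differentiated KCs were the smallest stage, with a median of 3801 and 8950 UMIs per cell against 18776.5 and 17203.5 in differentiated KCs, and markers of some other cells had higher summed levels in them. The summed level of the 12 markers of dividing cells was 2431 and 2546 CPM, against 408.7 and 459.9 CPM in differentiated KCs, with no marker at 0. The 7 melanocyte markers summed to 496.8 and 364.9 CPM, none at 0, against 4.68 CPM (Tyrp1 and Tyr at 0) and 66.9 CPM (none at 0). The 14 markers of inner root sheath and hair shaft found in the files summed to 799.5 and 557.8 CPM, with Krt72 and Dsg4 at 0 in both mice and Krt31 in KO mouse 1, against 178.5 and 192.4 CPM. Markers of endothelial, mural, erythroid and Merkel cells were all at 0 in terminally differentiated KCs. The part of these markers' RNA in the lower Tgm3 and Evpl levels was not tested. Krt1 and Krt10 were also lower than in differentiated KCs, with log2 differences of -2.35 and -2.015 (adjusted p of 0.00365 and 0.000994, edgeR). Krt5, at 1579 and 2201 CPM against 851.7 and 1298 CPM, and Krt14 were not called (adjusted p of 0.268 and 0.497, edgeR). With DESeq2's size factors in edgeR, the falls were 2.01 for Tgm3 and 1.09 for Evpl on the log2 scale, and over all genes the calls moved from 1533 higher and 1555 lower to 1669 higher and 1284 lower (DESeq2 itself gave 2083 and 1195).

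A second ordering used no clusters beyond the choice of IFE cells, but the same keratins had helped to name the stages. In 8626 IFE cells with at least 20 UMIs of Krt1, Krt10, Krt5 and Krt14, the share of the suprabasal keratins Krt1 and Krt10 was taken. Cells were pooled in 8 bins from 0 to 100%. IFE cells without a class name were among them. Their clusters, led by Cenpa and Cdc20 and by Scube2 and Lpl, had shares of 20.2% and 17.2%, and the former was closest to follicle progenitor markers. The unnamed IFE cells held 1.99% and 2.23% of all Ppl UMIs with 5.03% and 4.71% of the cells and 3.86% and 3.50% of the UMIs of all genes. Their part in the levels of the bins was not tested. Tgm3 stood at 1.38 and 1.56 CPM below 5%, 1.97 and 4.80 CPM at 50 to 75%, 11.99 and 16.7 CPM at 75 to 90%, 23.5 and 37.4 CPM at 90 to 98% and 72.9 and 90.0007 CPM above 98%. Tgm1 stood at 0.690 and 1.19 CPM below 5%, 0.987 and 3.84 CPM at 50 to 75%, 3.997 and 17.9 CPM at 75 to 90%, 9.39 and 20.8 CPM at 90 to 98% and 47.6 and 34.8 CPM above 98%. Both transglutaminases were thus highest in the last bin in both mice, and the levels of Tgm1 between 75 and 98% were higher in KO mouse 2 than in KO mouse 1. Evpl was at 23.2 and 24.1 CPM below 5%, 18.4 and 19.2 CPM at 10 to 25%, 38.3 and 31.3 CPM at 25 to 50% and 132.5 and 155.8 CPM above 98%. Ppl was at 188.5 and 144.9 CPM below 5%, 139.6 and 139.8 CPM at 10 to 25%, 262.4 and 234.2 CPM at 50 to 75% and 310.0 and 270.0 CPM above 98%. Tgm5 ranged from 7.70 to 19.2 CPM over the bins of KO mouse 1 and from 6.44 to 16.3 CPM over those of KO mouse 2. By the mean of the 2 mice, the bin above 98% was the highest for each member, for Tgm2 with 1 UMI. In KO mouse 2 alone, Tgm5 was highest at 50 to 75%, with 16.3 CPM against 14.2 CPM above 98%. Without the terminally differentiated class the highest bin by the mean remained the same for each member. Tgm1 at 75 to 90% then stood at 0 and 7.84 CPM (0 and 11 UMIs), against 3.997 and 17.9 CPM (5 and 28 UMIs) with that class. At 90 to 98% it stood at 9.78 and 17.6 CPM.

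**Figure D2:**
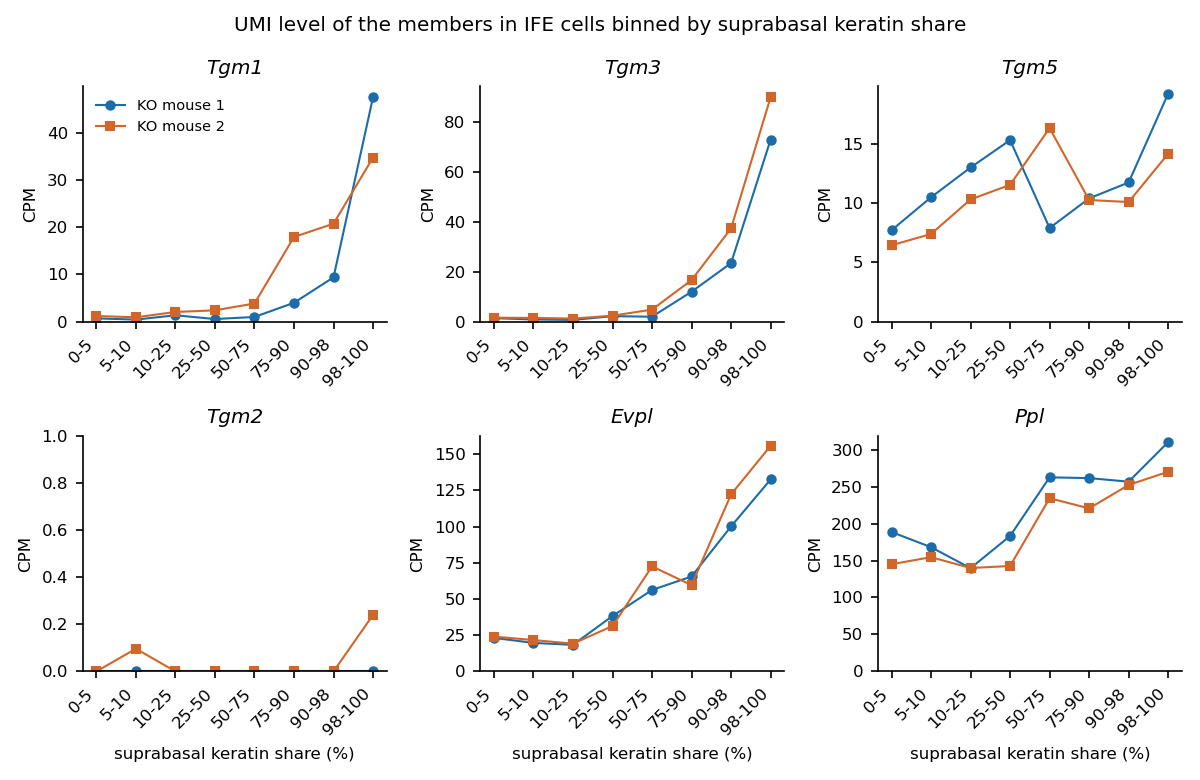
Level of each member (y axis, CPM) in IFE cells binned by the share of Krt1 and Krt10 among the UMIs of Krt1, Krt10, Krt5 and Krt14 (x axis, percent) in KO mouse 1 (circles) and KO mouse 2 (squares). Tgm1 and Tgm3 are highest in the last bin in both mice, Evpl and Ppl have their lowest levels at 10 to 25%, and Tgm2 has at most 2 UMIs in any bin. The bins include IFE cells without a class name.

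Past 90% suprabasal keratin, 487 cells were split by loricrin (Lor), the main envelope protein and a transglutaminase substrate that had been kept out of the clustering; these limits were set after the values had been seen, and no test was made. In cells under 100 CPM of Lor (159 and 163 cells), Tgm1 stood at 7.28 and 6.41 CPM, in those of 100 to 1000 CPM (49 and 61 cells) at 36.9 and 30.8 CPM, and in those above 1000 CPM (32 and 23 cells) at 204.5 and 168.0 CPM. Tgm3 stood at 53.9 and 58.8, 80.0 and 113.8, and 61.2 and 65.9 CPM in the same cells. So Tgm1 was highest in the cells richest in Lor in both mice, whereas Tgm3 was highest in the middle group. Tgm5 went from 7.28 and 8.63 to 64.2 and 31.4 CPM, Evpl from 94.3 and 110.9 to 229.9 and 288.9 CPM, and Ppl from 250.4 and 212.8 to 633.0 and 573.0 CPM between the poorest and the richest cells. The richest cells were also deeper, with a median of 23030.5 and 23642 UMIs against 19339 and 19893 in the poorest, and the part of depth was not tested. Without the cells of the terminally differentiated class the richest group held 22 and 20 cells at a median of 30119 and 25786 UMIs, with 211.6 and 168.5 CPM of Tgm1 and 64.3 and 66.8 CPM of Tgm3. The terminally differentiated class, with 18122 and 15664 CPM of Lor, had the lower 36.2 and 68.8 CPM of Tgm1 given above. Evpl stood at 238.3 and 289.3 CPM and Ppl at 638.0 and 573.9 CPM in the richest group without that class. In the class itself they were lower too, at 65.8 and 59.2 CPM for Evpl and 220.4 and 256.0 CPM for Ppl. The cause of these differences was not tested.

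**Figure D3:**
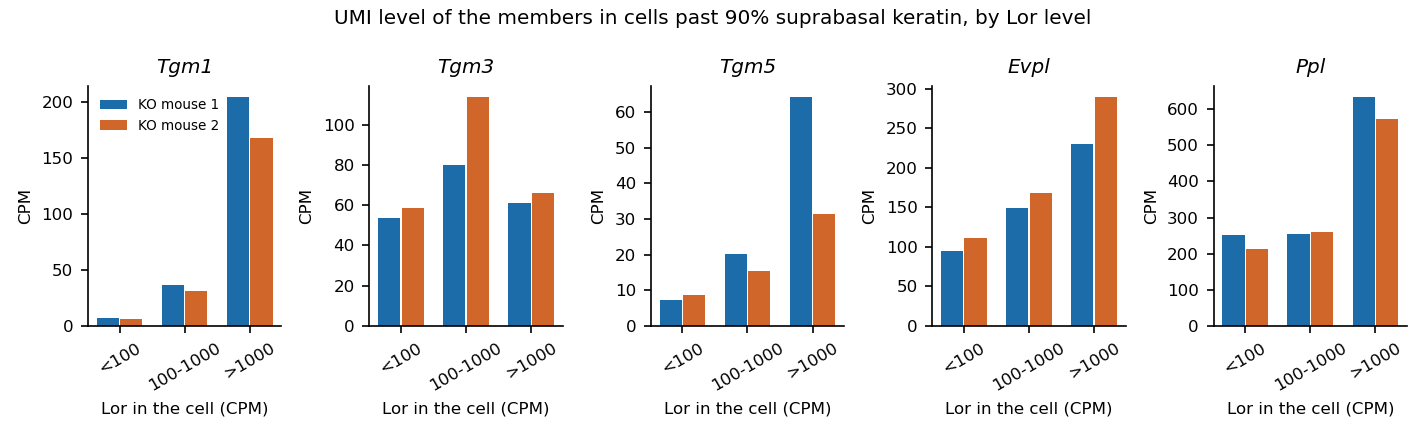
Level of 5 members (y axis, CPM) in cells past 90% suprabasal keratin in 3 groups of Lor level (x axis, CPM), with a bar for each mouse. The bars of Tgm1 reach 204.5 and 168.0 CPM in the richest group, whereas those of Tgm3 stay between 53.9 and 113.8 CPM.

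As shares of cells, Tgm3 was found in 32.9% and 31.4% of differentiated KCs (exact 95% binomial intervals 27.9 to 38.3 and 27.0 to 36.1) and Tgm1 in 16.2% and 15.7% (12.4 to 20.6 and 12.4 to 19.6). In melanocytes the shares were 0.458% and 0.688% for Tgm3 and 0.686% and 2.06% for Tgm1, at a median of 8786 and 9667 UMIs. After each cell was thinned to 3000 UMIs, Tgm3 was left in 9.61% and 7.95% of differentiated KCs and in 0% and 0.140% of melanocytes, and Tgm1 in 5.11% and 2.65% and in 0.472% and 0.559%. In differentiated KCs with a Tgm1 UMI, 61.1% and 68.2% also had one of Tgm3, against 27.5% and 24.6% of those without. The former were deeper, with a median of 29914.5 and 29270.5 UMIs against 17357 and 16144.5, and the part of depth in this was not tested.

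Dividing basal KCs were compared with resting ones to see which members go with the cell cycle. Of the 5 members tested, 1 was called, where 16.5% of all genes were called, 9.1% higher and 7.37% lower. Ppl stood at 110.8 and 88.7 CPM in dividing KCs, below the 198.7 and 160.2 CPM of resting KCs, and fell by 0.94 on the log2 scale (SE 0.15, adjusted p = 3.8e-05, edgeR). Dividing KCs were deeper, with a median of 16333.5 and 16070 UMIs per cell against 9295.5 and 9489.5. The fall is thus one in the share of UMIs, and RNA per cell was not tested. Ppl had 491 and 746 UMIs in the 260 and 511 dividing KCs, against 3961 and 5794 in the 1978 and 3540 resting ones. Evpl, at 21.2 and 20.1 CPM in dividing KCs, had a log2 difference of -0.17 (SE 0.16, adjusted p = 0.56, edgeR), and those of Tgm1, Tgm3 and Tgm5 lay between -0.09 and 0.34 with adjusted p of 0.33 or more (edgeR).

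The resting basal KCs were not uniform in Tgm5. They came from 9 clusters, which had been formed without it, so the values are a description. In the cluster led by Ackr4 and Pcsk2 (543 and 939 cells), Tgm5 had 2 and 10 UMIs (0.452 and 1.32 CPM), and in the one led by H19 and Igf2 (374 and 603 cells) 3 and 8 UMIs (0.716 and 1.204 CPM). Melanocytes had 3.24 and 2.68 CPM of Tgm5, and 0.797 and 0.769 CPM (3 and 5 UMIs) after doublets were removed, so these clusters were not placed above or below that background. In the cluster led by Ccl27a and Pou3f1 (279 and 542 cells), Tgm5 stood at 17.7 CPM in either mouse (43 and 86 UMIs), and in a small one led by Pcdh20 and Calm5 (30 and 35 cells) at 62.1 and 74.9 CPM (21 and 24 UMIs). The 3 larger of these clusters had like depths, with medians between 7984 and 10831 UMIs. Ppl did not have the same order, and stood at 247.1 and 194.4 CPM in the Ackr4 cluster and at 147.9 and 131.1 CPM in the Pcdh20 cluster. The basal name of the Pcdh20 cluster was the weakest of the 9, with 8 basal markers enriched and a mean enrichment of 0.157. At resolution 1.2 the cluster led by the same genes got no name. The Ccl27a cluster kept its name there, but one led by Ccl27a and Pou3f1 had none when all cells were clustered. The differentiated KCs also divided, with Tgm5 at 15.6 and 11.4 CPM in the cluster led by Krt1 and Krt10 and at 36.7 and 36.8 CPM in the one led by Krt77 and Penk (36 and 45 cells), where Tgm1 was at 10.3 and 8.18 CPM against 31.4 and 23.2 CPM.

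**Figure D4:**
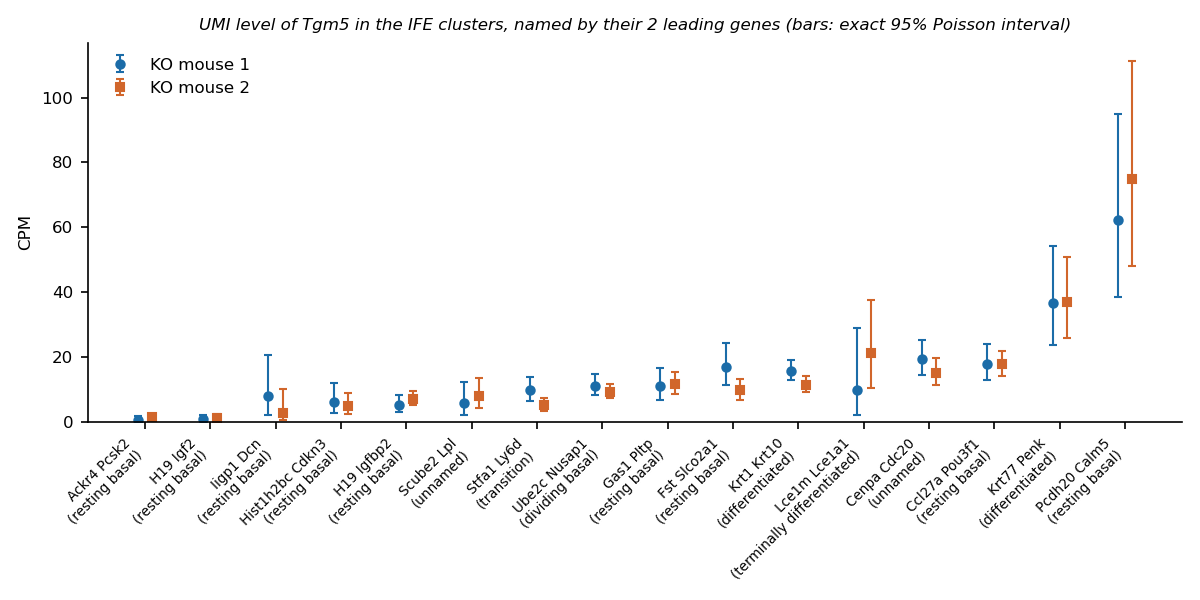
Level of Tgm5 (y axis, CPM) in the 16 clusters of IFE cells (x axis, named by their 2 leading genes and their class), in order of the mean, with exact 95% Poisson intervals for KO mouse 1 (circles) and KO mouse 2 (squares). The levels run from 0.452 to 74.9 CPM, and both mice have their highest level in the Pcdh20 cluster.

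In the hair follicle, Tgm5 and the plakins parted. Tgm5 stood at 19.9 and 16.4 CPM in resting follicle progenitors (275 and 347 UMIs), 20.9 and 16.1 CPM in dividing ones, 36.1 and 38.0 CPM in upper follicle cells (224 and 230 UMIs) and 37.0 and 25.2 CPM in sebaceous cells. Ppl stood at 56.3 and 53.1 CPM in resting progenitors, 31.4 and 34.1 CPM in dividing ones, 146.5 and 133.0 CPM in upper follicle cells and 28.1 and 31.0 CPM in sebaceous cells. In both mice the progenitors were thus above the resting basal KCs in Tgm5 and below them in Ppl. Of the 5 members tested, 3 were called between resting follicle progenitors and resting basal KCs, where 30.8% of all genes were called, 16.2% higher and 14.6% lower. Tgm5 was higher by 1.16 on the log2 scale (SE 0.18, adjusted p = 1.3e-05, edgeR). Ppl was lower, with a log2 difference of -1.84 (SE 0.15, adjusted p = 3.2e-10, edgeR), and so was Evpl, at 9.53 and 11.1 CPM, with -1.19 (SE 0.15, adjusted p = 9.0e-07, edgeR). Tgm1 and Tgm3 stood at 1.65 CPM or lower in both classes and had adjusted p of 0.59 and 0.20 (edgeR). Tgm2 had 5 and 7 UMIs in resting progenitors (0.361 and 0.330 CPM) and 10 and 17 in dividing ones (0.660 and 0.802 CPM), with intervals that overlapped in either mouse.

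Upper follicle cells were named from markers of the upper follicle and companion layer, and their cluster was led by Krt79 and Krt75. Krt79 is known from cells that line the hair canal and the sebaceous duct, and companion layer cells were not told apart from these. The class was higher than resting progenitors in 4 of the 5 members, where 38.8% of all genes were called, 19.9% higher and 18.8% lower. Tgm1 had 41 and 26 UMIs there, or 6.61 and 4.29 CPM against 1.08 and 1.65 CPM, and was higher by 1.935 on the log2 scale (SE 0.41, adjusted p = 0.00058, edgeR). Ppl was higher by 1.35 (SE 0.15, adjusted p = 7.4e-08, edgeR), Evpl, at 24.3 and 18.98 CPM, by 1.05 (SE 0.17, adjusted p = 2.7e-05, edgeR) and Tgm5 by 1.04 (SE 0.18, adjusted p = 4.2e-05, edgeR). Tgm3 had only 2 and 7 UMIs there (0.322 and 1.16 CPM), with a log2 difference of -0.42 (SE 0.61, adjusted p = 0.63, edgeR). Under the finer clustering (resolution 1.2) this difference turned to 2.46 (adjusted p = 0.00023, edgeR). The 15 suprabasal markers of the IFE summed in upper follicle cells to 11398 and 12415 CPM, against 4982 and 6191 CPM in resting progenitors, with Skint3 at 0 in KO mouse 2, and the part of this in the differences was not tested. Krt1 and Krt10 were not called between these classes (log2 differences of 0.18 and -0.36, adjusted p of 0.834 and 0.531, edgeR), and Lor was lower, with -0.68 (adjusted p = 0.0263, edgeR).

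The inner root sheath is known to use TGM3 to harden. Its cells, pooled here with hair shaft cells, had 4 and 18 UMIs of Tgm3 (0.753 and 1.81 CPM), against 0.650 and 1.23 CPM in resting progenitors. The pooled class was not split into dividing and resting cells. Its dividing markers were enriched by 1.06 on the log2 scale over all other cells. That was above the 0.9 at which basal cells and progenitors were called dividing. The part of this in the differences was not tested, nor was whether these cells were hardening. Of the 5 members, 2 were called between the pooled class and resting progenitors, where 42.3% of all genes were called, 20.5% higher and 21.7% lower. Evpl, at 12.1 and 17.8 CPM, was higher by 0.62 on the log2 scale (SE 0.18, adjusted p = 0.0060, edgeR), and Tgm5, at 10.2 and 8.05 CPM, was lower, with -0.96 (SE 0.21, adjusted p = 0.00054, edgeR). The log2 differences of Ppl, Tgm1 and Tgm3 were -0.27 (SE 0.16), 0.42 (SE 0.50) and 0.58 (SE 0.48), with adjusted p of 0.18, 0.54 and 0.36 (edgeR).

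**Figure D5:**
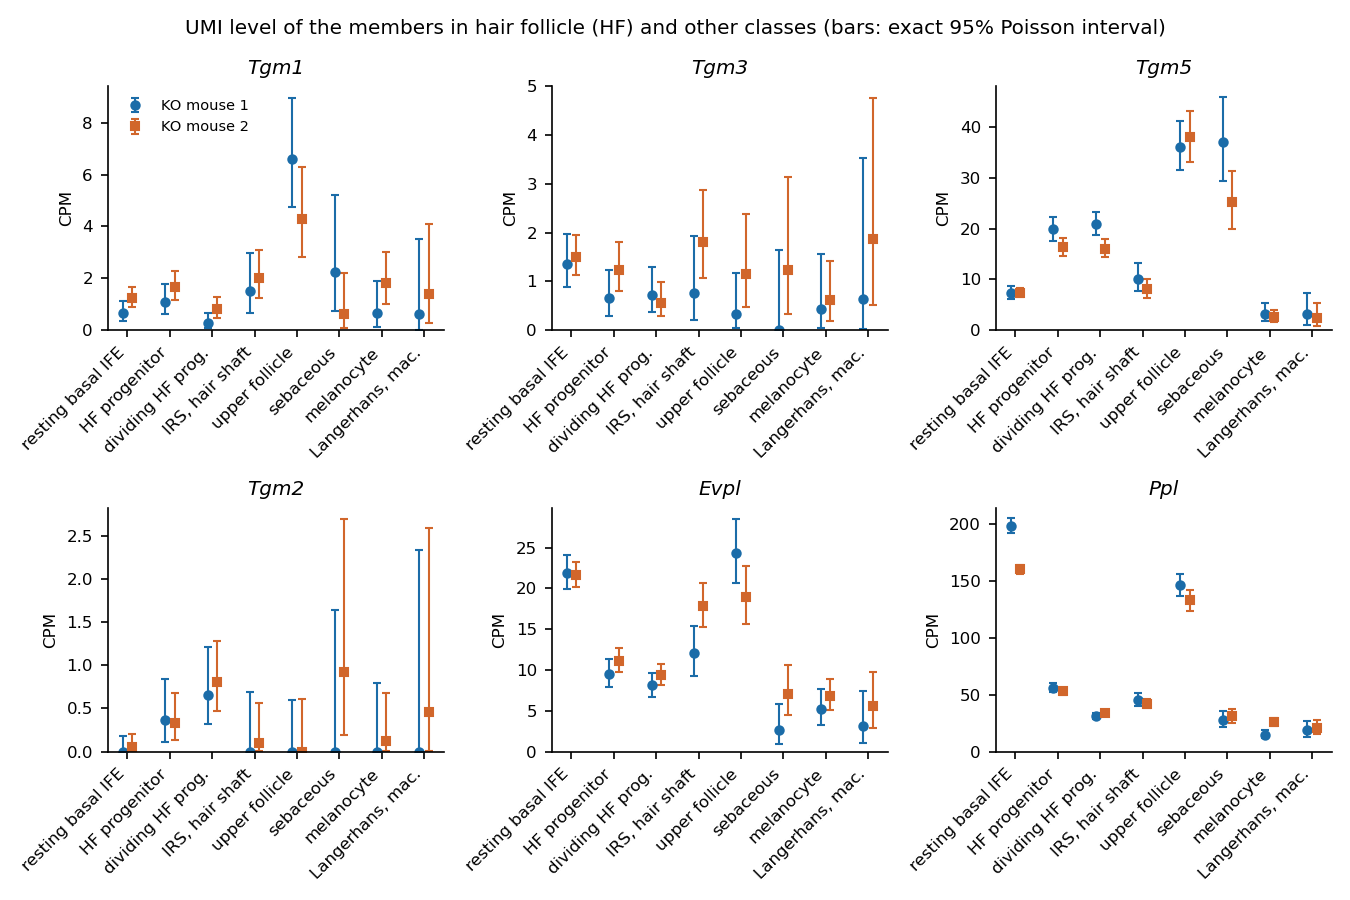
Level of each member (y axis, CPM) in resting basal IFE, the hair follicle classes, sebaceous cells, melanocytes and Langerhans cells with macrophages (x axis) in KO mouse 1 (circles) and KO mouse 2 (squares), with exact 95% Poisson intervals. Tgm5 is at 36.1 and 38.0 CPM in upper follicle cells and at 37.0 and 25.2 CPM in sebaceous cells, and Ppl is highest in resting basal IFE among the classes drawn.

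Over the 14 classes of the fit, the order of the mean levels differed between members. Tgm3 was highest in differentiated KCs (50.6 CPM, SD 2.45, n = 2), followed by terminally differentiated KCs (15.6 CPM, SD 5.85), and the other classes lay at 1.42 CPM or lower with intervals that overlapped from each to the next. Tgm1 was led by terminally differentiated (52.5 CPM, SD 23.0) and differentiated KCs (25.5 CPM, SD 5.57), whose intervals overlapped in KO mouse 1 but not in KO mouse 2, ahead of upper follicle cells (5.45 CPM, SD 1.64). Tgm5 was led by upper follicle (37.0 CPM, SD 1.32) and sebaceous cells (31.1 CPM, SD 8.35), whose intervals overlapped in KO mouse 1 but not in KO mouse 2. Evpl was led by differentiated KCs (113.4 CPM, SD 7.03), and Ppl by transition (268.8 CPM, SD 30.05) and differentiated KCs (264.2 CPM, SD 23.1), which did not differ beyond their spread.

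The genes whose levels over the 28 sums (14 classes in 2 mice) were most like each member's were found by Pearson's r on log2(CPM + 1), given as a description since all genes share the libraries and classes. For Tgm1 they were Sprr1b (r = 0.928), Cysrt1 (0.927) and Asprv1 (0.926), and for Tgm3 Chit1 (0.932), Sprr1b (0.906) and Stfa2 (0.898). For Evpl they were Fam83g (0.951), Endou (0.938) and Calm4 (0.930), and for Ppl Pkp1 (0.947), Dsp (0.937) and Urah (0.936), of which plakophilin 1 and desmoplakin are desmosome proteins. For Tgm5 they were Brap (0.946), Lrrc8e (0.911) and Hyal2 (0.899). The plakins were alike (r = 0.929 between Evpl and Ppl), as were Tgm1 and Tgm3 (0.847), whereas Tgm5 had r from 0.329 to 0.421 with these 4 members.

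Among the known substrates of transglutaminases in the envelope, 22 of 31 listed genes in the files were tested. From transition to differentiated KCs, 14 were higher and 1 lower, with a median log2 difference of 2.74 against 0.015 over all genes. Involucrin (Ivl) went from 1.60 and 1.66 to 60.15 and 34.9 CPM and Lor from 39.7 and 65.7 to 1275 and 1083 CPM, with log2 differences of 4.89 (SE 0.43, adjusted p = 4.7e-09, edgeR) and 4.51 (SE 0.26, adjusted p = 1.4e-11, edgeR). At the step into transition KCs, where Tgm1 and Tgm3 were not called, 4 substrates were higher and none lower. They were Csta1 (2.04 on the log2 scale), annexin A1 (Anxa1, 1.14), cystatin B (Cstb, 0.71) and S100a11 (0.70). In terminally differentiated KCs 8 were higher and 4 lower, among them Sprr2d, a small proline-rich protein gene, which stood at 181.0 and 1242 CPM against 0.413 and 0.8945 CPM in differentiated KCs. Upper follicle cells had 8 higher and 2 lower than progenitors, with Sprr1a at 81.1 and 53.5 CPM against 0.433 and 0.519 CPM. Between dividing and resting basal KCs edgeR called 0 substrates, with 2 at an unadjusted p under 0.05 and 0 called by DESeq2. In addition, 7 were lower and none higher in follicle progenitors than in resting basal KCs, and 1 was higher and 3 lower in the inner root sheath and hair shaft. Over all genes tested, 23.4% were called into transition, 20.3% into differentiated and 22.4% into terminally differentiated KCs. It was 16.5% in dividing basal KCs and 30.8% in follicle progenitors. Upper follicle cells had 38.8% and the inner root sheath and hair shaft 42.3%. Counted in either direction, the substrates fell below these shares in transition, dividing basal and inner root sheath and hair shaft cells. In follicle progenitors and upper follicle cells they were near them. By direction, 4 of 22 were higher and none lower into transition, where 9.84% of all genes were higher and 13.6% lower. In follicle progenitors 7 were lower and none higher, where 14.6% of all genes were lower and 16.2% higher. In upper follicle cells 8 were higher and 2 lower, where 19.9% were higher and 18.8% lower.

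The 9 listed partners of the envelope plakins, mostly desmosomal proteins, were all tested. For them and for the other plakins, the shares of all genes called in each comparison are those given for the substrates. Into transition KCs 4 were higher and none lower, among them desmoglein 1 alpha (Dsg1a), from 34.3 and 35.6 to 190.3 and 158.2 CPM, and plakoglobin (Jup), from 155.9 and 159.8 to 521.0 and 503.4 CPM. Into differentiated KCs 7 were higher and none lower, led by desmocollin 1 (Dsc1), from 8.32 and 12.4 to 180.7 and 166.8 CPM. In terminally differentiated KCs 6 were lower and 1 higher, the latter being vimentin (Vim), a filament protein of melanocytes, immune and dermal cells, at 207.3 and 198.7 CPM against 8.12 and 19.1 CPM. Dividing basal KCs had 3 lower, follicle progenitors 5 lower and 1 higher, inner root sheath and hair shaft cells 4 higher and 3 lower, and upper follicle cells 8 higher and none lower, with Dsg1a at 323.6 and 237.0 CPM against 18.6 and 23.0 CPM. Of the other plakins, 4 of 5 listed were in the files. Desmoplakin (Dsp) was higher in transition than in resting basal KCs (1738 and 1470 CPM against 880.9 and 821.9 CPM) and bullous pemphigoid antigen 1 (Dst), which ties keratins to hemidesmosomes, fell into differentiated KCs (156.7 and 156.2 CPM against 531.2 and 380.3 CPM). Apart from the members Evpl and Ppl, edgeR called no further plakin at those steps, and DESeq2 called 2 of the other plakins into differentiated KCs. The other counts by edgeR were 1 higher and 1 lower in terminally differentiated KCs and 3 lower in dividing basal KCs. They were also 3 lower in follicle progenitors and in inner root sheath and hair shaft cells, and 3 higher and 1 lower in upper follicle cells. Of the 6 transglutaminase relatives only F13a1, the gene of coagulation factor XIII A, was tested, and edgeR called it in 0 of the 7 comparisons (0 at an unadjusted p under 0.05, 0 by DESeq2). Its UMIs lay in Langerhans cells and macrophages (5.69 and 5.58 CPM) apart from 1 in a differentiated KC.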

How the data were processed

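Single-cell suspensions of epidermis from 2 Chrm3 KO mice were sequenced with 10x 3′ chemistry, of which the sources used here name different versions. The deposited files hold UMI counts per gene and barcode, which the authors made with Cell Ranger 3.0.2 against mm10 and did not normalize. Wild-type libraries were not analysed here. Total UMI counts were 109756784 in KO mouse 1 and 166441732 in KO mouse 2. Intervals are exact 95% Poisson or binomial intervals and cover counting error only.

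Barcodes with fewer than 900 or more than 7700 genes, or with 10% or more of mitochondrial UMIs, were left out. The rest were integrated by CCA with Seurat 5.3.0 (R 4.3.3) on 30 dimensions of 2000 variable genes, among which no member or listed gene was allowed, and clustered at resolution 0.8 (24 clusters). The 8671 IFE cells were clustered again (16 clusters). Clusters were named from marker lists, with thresholds that were set after the clusters had been seen. Cells under no name (515 and 890 outside the IFE, 383 and 560 in it) stayed out of the classes. Scrublet (scanpy 1.11.5, Python 3.11.15) called 2.16% and 4.20% of cells doublets, which were kept in the main values and removed as an alternative.

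UMIs were summed per mouse for the 14 classes with at least 20 cells in each mouse and tested with edgeR 4.0.16 (quasi-likelihood, TMM, filterByExpr, 14 residual degrees of freedom, adjusted p under 0.05). DESeq2 1.42.0, its size factors, no filter, a replicate block, other cells and resolution 1.2 were alternatives. Scripts were tested on simulated data. Each mouse number is 1 animal, so sums are paired by it, and over 91 pairs of classes their deviations correlated with r from -0.015 to 0.358 (median 0.0639).

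The members and lists were chosen with earlier results of these data known. Of each list, at most 4 called genes with the largest log2 difference were named per comparison, and for each member the 3 genes most correlated with it among those of at least 10 CPM on average. Levels were not compared between genes, since 3′ counts depend on the end that is read.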

Additional observations from a re-analysis of the deposited data

Results flagged for a closer look

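Tgm2 was concentrated in cells that entered no comparison of the report. An unnamed cluster of 116 cells in KO mouse 1 and 247 in KO mouse 2, led by Tagln and Foxe1, held 16 and 26 of the 31 and 59 Tgm2 UMIs, which is 51.6% and 44.1% of them. Its Tgm2 level was 10.8 CPM (exact 95% Poisson interval 6.17 to 17.5) in KO mouse 1 and 7.29 CPM (4.76 to 10.7) in KO mouse 2, where the limit set by no count, taken as 3 UMIs, would be 2.02 and 0.841 CPM, and 7.76% and 7.29% of its cells had a UMI. In melanocytes 0 of 437 and 1 of 727 cells had one. The cluster also had 456.4 and 277.8 CPM of Tagln, an actin-binding protein, and Foxe1, a transcription factor, and it was given no cell type name. What Tgm2 RNA in these cells reflects was not tested.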

How the results depend on the processing

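Of 35 member differences tested, 18 were called, and these 18 kept their direction and call in all 126 alternative tests (DESeq2, its size factors, no filter on low counts, the replicate block, doublets removed, resolution 1.2, shared barcodes removed). They also kept their sign without either mouse, which is a value with no test. With the mouse as a replicate block, 2 members were called in terminally differentiated against differentiated KCs, as without it, and no member call changed. Over all genes the block raised the number called in each comparison, from 3088 to 3423 in this one and from 2273 to 3358 in dividing basal KCs. The shares of all genes given above are those without the block. Without the filter, 4 members were called in terminally differentiated against differentiated KCs, since Tgm1 (0.85, adjusted p = 0.026, edgeR) and Ppl (-0.42, adjusted p = 0.031, edgeR) were added. With doublets removed, Ppl was called there (-0.49, adjusted p = 0.048, edgeR) and in the inner root sheath and hair shaft (-0.49, adjusted p = 0.012, edgeR). At resolution 1.2 the log2 differences of uncalled members changed sign for Tgm3 (1.03) and Tgm5 (-0.24) from resting basal to transition KCs, Tgm1 in follicle progenitors (-0.54), Ppl in the inner root sheath and hair shaft (0.00605) and Tgm3 in upper follicle cells (2.46), and Tgm3 was called in follicle progenitors (-1.43, adjusted p = 0.017, edgeR). Without the filter Tgm5 changed sign from resting basal to transition KCs (-0.0425). The causes were not tested. The class with the highest level changed at resolution 1.2 for Ppl (differentiated KCs). For Tgm2 it became sebaceous cells, but dividing follicle progenitors were not a named class at that resolution. Cells without a name outside the IFE, which include a cluster led by Tagln and Foxe1, had 1.14 and 1.31 CPM of Tgm2 there. Sebaceous cells had 0.744 and 0.537 CPM, and their class also took in a cluster led by Apoe and Aldh3a1 (232 and 290 cells). Few UMIs stood behind some levels, with 31 and 59 of Tgm2 in all kept cells and 6 of Tgm3 in the terminally differentiated KCs of either mouse.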
